A study of Homo sapiens with 24 samples.

Results

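The genes described here encode proteins of the mitochondrial ribosome. They were chosen by name: every gene whose annotated symbol is MRPL or MRPS followed by a number and at most 1 letter, with at least 1 probe detected (detection p under 0.01) on at least 2 arrays. All 76 such symbols on the array met that condition, and they are 76 of the 12141 genes tested. The probe that stood for each gene was detected on all 24 arrays, so no member has only a bound. By the position of the protein in the human mitoribosome, 50 members belong to the large subunit and 26 to the small subunit. By descent, 45 have a bacterial homologue and 31 are specific to mitochondria.

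The study profiled SW480 colon cancer cells on Illumina expression arrays. All cells carried a pBABE-puro retrovirus, either the control vector or one for BOP1, CKS2 or NFIL3, and each of these 4 stable lines was treated for 24 h. The control line received only the solvent DMSO. The BOP1 line received DMSO, 3.3 µM LY294002 (a PI3K inhibitor that also acts on mTOR), 33.3 nM SP600125 (a JNK inhibitor) or 667 nM DAPT (a gamma-secretase inhibitor). The CKS2 line received DMSO, 3.3 µM LY294002 or 3.3 µM SB203580 (a p38 inhibitor). The NFIL3 line received DMSO, 3.3 µM LY294002, 3.3 µM SB203580 or 33.3 nM Rapamycin (an inhibitor of mTORC1). Each of the 12 groups has 2 arrays that the labels call biological replicates. No inhibitor was given to the control line, and each gene was introduced in a single stable line, so inhibitors are compared only within transduced lines. Of 10 epithelial markers, 9 were kept and 8 were detected on all 24 arrays, VIL1 being the one not kept. Of the markers of other cells, 3 of 10 leukocyte genes (CD14, CD68 and LYZ), 2 of 7 fibroblast genes (COL1A1 and COL1A2) and 0 of 6 endothelial genes were kept.

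Mitochondrial ribosomes make the few proteins that mitochondrial DNA encodes, all of them subunits of the respiratory chain or ATP synthase. Their RNA comes from mitochondrial DNA, but every protein of the particle is encoded in the nucleus, made in the cytosol and imported. The large subunit holds the peptidyl transferase centre and the exit tunnel, the small subunit the decoding centre. In mammals, proteins without a bacterial counterpart have been added to both. The transcription factors NRF1 and GABP, an ETS factor, are the regulators most often named for nuclear genes of mitochondrial function.

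Promoter letters are shown for the members that moved together, since they let a reader compare members that fell with LY294002 in all 3 lines with members that rose. RefSeq entries were matched for 68 of the 76 members by gene ID. The entries are on GRCh38.p14, and where a gene had several the first listed was used. MRPL10, MRPL13, MRPL15, MRPL2, MRPL21, MRPL23, MRPL35 and MRPS28 were not matched. Each line gives the 250 bases before the start, 5′ to 3′ on the gene's strand. Capitals mark matches, on either strand, to GCGCANGC (NRF1), CCGGAAG (ETS), AAGATGGC (YY1), CACGTG (E-box) or CCAAT (the CCAAT box). CCAAT was added to the search after these letters had been seen. Shown are 6 of the 8 members that fell in all 3 lines, MRPL39, MRPL3, MRPS30, MRPS18C, MRPL18 and MRPL50. The other two, MRPL23 and MRPL35, had no matched entry. The last 2 lines are MRPL41 and MRPL43, which rose on the mean of 3 lines. The stretches are chr21:25607482-25607731 (minus strand) for MRPL39, chr3:131502972-131503221 (minus) for MRPL3, chr5:44808697-44808946 (plus) for MRPS30 and chr4:83455808-83456057 (plus) for MRPS18C. MRPL18 is shown from chr6:159789562-159789811 (plus) and MRPL50 from chr9:101398619-101398868 (minus). The last are chr9:137551629-137551878 (plus) for MRPL41 and chr10:100987498-100987747 (minus) for MRPL43.
MRPL39: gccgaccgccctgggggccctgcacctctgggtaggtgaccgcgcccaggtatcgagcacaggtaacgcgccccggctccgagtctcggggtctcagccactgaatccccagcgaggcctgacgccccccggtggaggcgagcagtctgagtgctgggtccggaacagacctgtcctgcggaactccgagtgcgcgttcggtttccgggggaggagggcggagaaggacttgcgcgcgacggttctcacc
MRPL3: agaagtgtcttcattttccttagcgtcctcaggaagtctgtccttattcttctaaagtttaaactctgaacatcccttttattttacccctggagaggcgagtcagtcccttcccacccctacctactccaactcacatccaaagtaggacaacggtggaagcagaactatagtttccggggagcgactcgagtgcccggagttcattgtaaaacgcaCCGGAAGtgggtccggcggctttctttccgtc
MRPS30: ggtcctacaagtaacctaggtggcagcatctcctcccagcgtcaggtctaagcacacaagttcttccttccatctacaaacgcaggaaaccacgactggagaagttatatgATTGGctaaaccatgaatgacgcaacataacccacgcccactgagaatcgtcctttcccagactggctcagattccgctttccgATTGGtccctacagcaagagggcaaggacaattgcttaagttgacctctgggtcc
MRPS18C: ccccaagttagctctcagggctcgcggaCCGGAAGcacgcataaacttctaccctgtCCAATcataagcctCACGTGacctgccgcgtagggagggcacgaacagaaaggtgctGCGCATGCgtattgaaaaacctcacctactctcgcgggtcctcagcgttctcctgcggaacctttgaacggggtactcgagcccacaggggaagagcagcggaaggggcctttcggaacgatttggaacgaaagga
MRPL18: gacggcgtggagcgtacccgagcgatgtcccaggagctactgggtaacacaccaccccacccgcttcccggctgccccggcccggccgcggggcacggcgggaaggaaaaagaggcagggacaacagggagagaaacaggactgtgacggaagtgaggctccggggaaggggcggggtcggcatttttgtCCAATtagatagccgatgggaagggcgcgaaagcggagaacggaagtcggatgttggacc
MRPL50: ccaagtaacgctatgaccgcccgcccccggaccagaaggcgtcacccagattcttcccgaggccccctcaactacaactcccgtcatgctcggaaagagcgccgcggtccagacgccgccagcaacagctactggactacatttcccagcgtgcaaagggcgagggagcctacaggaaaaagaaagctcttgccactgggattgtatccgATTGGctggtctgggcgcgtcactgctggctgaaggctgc
MRPL41: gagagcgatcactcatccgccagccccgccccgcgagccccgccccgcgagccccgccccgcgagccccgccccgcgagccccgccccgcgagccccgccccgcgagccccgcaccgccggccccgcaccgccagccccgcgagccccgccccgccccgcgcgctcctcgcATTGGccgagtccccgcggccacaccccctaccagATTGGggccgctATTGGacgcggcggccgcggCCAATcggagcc
MRPL43: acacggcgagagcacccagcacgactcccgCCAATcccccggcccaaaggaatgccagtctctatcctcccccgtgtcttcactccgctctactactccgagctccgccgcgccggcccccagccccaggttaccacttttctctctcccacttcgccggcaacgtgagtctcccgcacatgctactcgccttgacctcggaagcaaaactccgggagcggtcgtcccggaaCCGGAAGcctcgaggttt

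None of the motifs searched was in all 8 sequences. MRPL18 and MRPL50 each held 1 CCAAT box, at 60 to 56 and, on the opposite strand, at 40 to 36 bases before the start. MRPL3 and MRPL43 each held the ETS letters close to the start, at 32 to 26 and at 18 to 12 bases before it. MRPS18C held 4 of the motifs, the NRF1 letters among them. MRPL39 held none, and its 250 bases were 69.6% G and C. MRPL41 was the most GC-rich of the 8, at 82.8%, with 4 CCAAT boxes of which 3 were on the opposite strand.

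Over the 68 matched members, 21 (30.9%) held the NRF1 letters in these 250 bases, against 19.3% of the 9702 tested genes with an entry and 10.9% of all 27305 genes with one. The ETS letters were in 22 members (32.4%), against 16.0% of tested genes and 8.82% of all. The YY1 letters were in 5 members (7.35%), against 1.82% and 1.37%. The E-box was in 6 members (8.82%), against 9.0% and 6.49%, and CCAAT in 18 members (26.5%), against 35.4% of tested genes. Among the 34 matched members that fell with LY294002 on the mean of 3 lines, 10 held the NRF1 letters and 8 the ETS letters. Among the 28 not called, 9 and 11 did, and among the 6 that rose, 2 and 3 did. In the same order (fell, not called, rose) YY1 letters were in 4, 1 and 0 members, the E-box in 4, 1 and 1, and CCAAT in 11, 5 and 2. These are matches of letters and were not tested, and they say nothing of what binds there.

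Signals were placed on a log2 scale after background correction and quantile normalization, so a difference is relative to the other transcripts of the same array. In such bulk RNA, fewer cells with a transcript and less of it per cell cannot be told apart. A rise or fall means an adjusted p under 0.05, by limma with Benjamini-Hochberg adjustment over all 12141 genes. Replicate arrays of a group correlated at 0.991 to 0.996 over all genes. The standard deviation between replicates was 0.0942 for the median member, with a range of 0.0485 to 0.208, against 0.13 for the median gene tested. Arrays had a mean raw signal of 971 to 1366, with 38.0% to 42.2% of probes detected.

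The mean log2 signal of the 76 members gives the outline. It was 12.07 and 12.10 on the control arrays and 11.91 to 11.96 on the 6 DMSO arrays of the BOP1, CKS2 and NFIL3 lines. It was 11.72 to 11.86 on the 6 LY294002 arrays, 11.85 and 11.87 with Rapamycin, 11.91 on both arrays with SP600125, 11.95 to 11.99 with SB203580, and 11.97 and 11.98 with DAPT. The control arrays were the highest and the LY294002 arrays lay below every DMSO array. The median of all tested genes stayed between 9.51 and 9.56 on every array, as quantile normalization tends to make it. Mean raw signal was 1366 and 1303 on the control arrays, 1117 to 1365 on the other DMSO arrays, 1012 to 1130 with LY294002 and 971 to 1153 with SB203580. The part of raw signal in these differences was not tested.

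**Figure D1:**
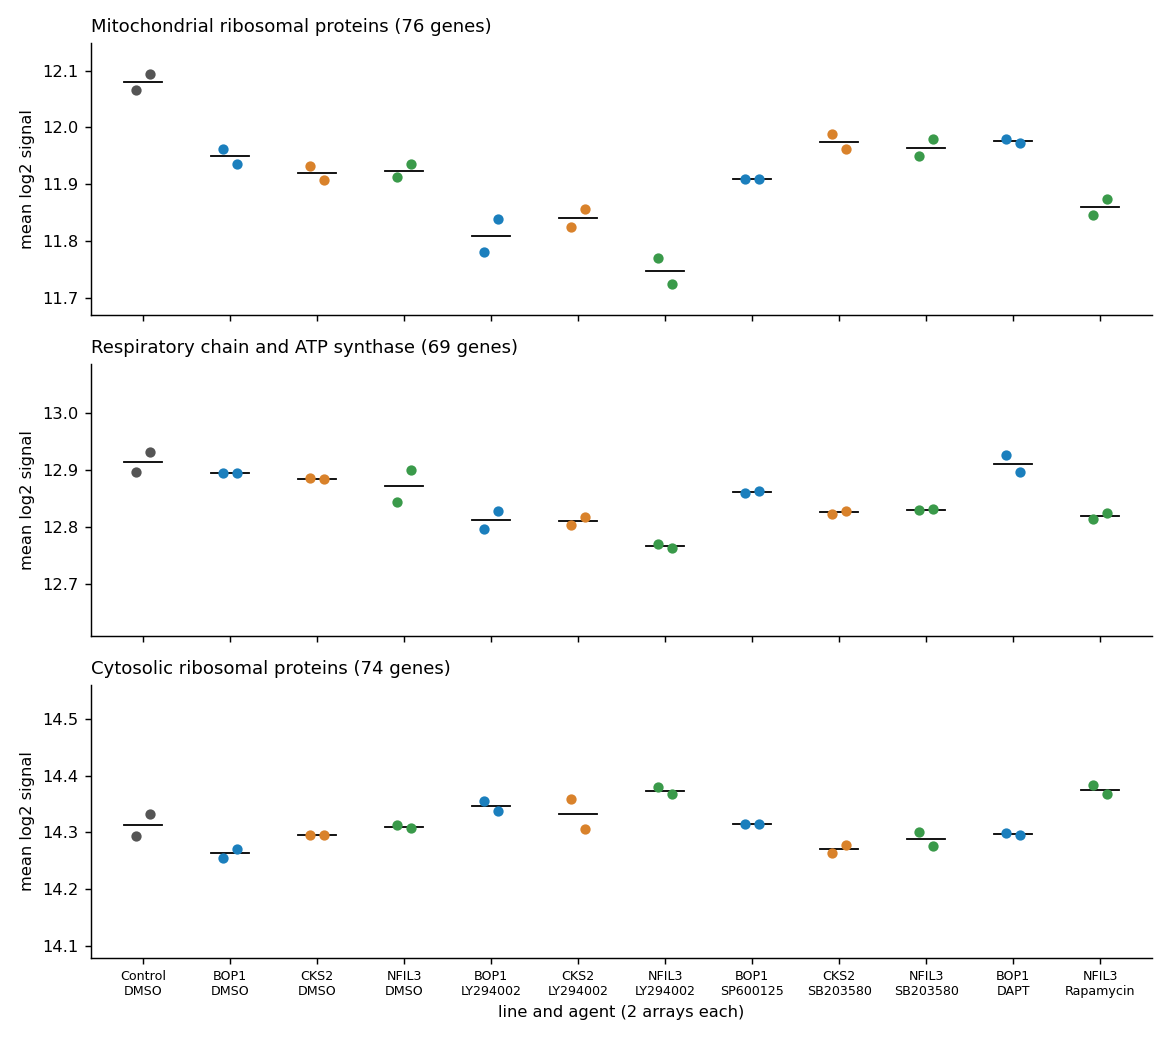
Mean log2 signal per array (y axis) of the 76 mitochondrial ribosomal protein genes, the 69 respiratory chain and ATP synthase genes and the 74 cytosolic ribosomal protein genes, by line and agent (x axis); points are arrays, bars the mean of 2 arrays, colours the lines, and all panels span the same number of log2 units. The mitoribosomal mean is highest in the control line and lowest with LY294002, while the cytosolic mean with LY294002 runs from 14.31 to 14.38.

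The first question was whether the members differed between each transduced line and the control line, both in DMSO. Most lay lower in each of the 3 lines, by a small amount: 66, 68 and 63 of 76 were below 0 in the BOP1, CKS2 and NFIL3 lines, where 47.9%, 49.1% and 48.8% of all tested genes were. The median member difference on the log2 scale was -0.133, -0.167 and -0.17, and the median of all genes was 0.015, 0.005 and 0.008. Few members passed the test singly. In the BOP1 line 6 members fell (7.89%) while 5.11% of all genes fell and 8.26% rose. In the CKS2 line 4 fell (5.26%), with 5.41% of all genes falling and 8.27% rising, and in the NFIL3 line 8 fell (10.5%), with 5.41% of all genes falling and 8.72% rising. The share of members that fell was thus near the background in the BOP1 and CKS2 lines and above it in the NFIL3 line. With only the compared arrays in the fit, 1, 2 and 0 members fell in the BOP1, CKS2 and NFIL3 lines. Large-subunit members are 50 of the 76. They made up all 6 falls in the BOP1 line, 3 of 4 in the CKS2 line and 6 of 8 in the NFIL3 line. In the same order 12%, 6% and 12% of large-subunit members fell, and 0%, 3.85% and 7.69% of small-subunit members. Whether the subunits differ was not tested. No member rose in any of the 3 lines by limma, none rose at an unadjusted p under 0.05, and none rose under any of the 8 alternative settings. The 3 comparisons use the same 2 control arrays, so their values stand side by side and are not counted as independent. In the same comparisons the 3 kept leukocyte markers had medians of 0.374, 0.392 and 0.554, LYZ rising in the NFIL3 line (0.992, adjusted p = 0.00265). Of the 2 fibroblast markers COL1A1 rose in the BOP1 line (0.476, adjusted p = 0.0385). Of 9 epithelial markers 1 rose in the CKS2 line and 0 fell in any line. Their part in the members' differences was not tested.

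MRPL41, a large-subunit protein specific to mitochondria that has also been studied as a partner of BCL2, fell in all 3. Its log2 signal was 12.50 and 12.47 on the control arrays. It was 12.10 and 12.02 in BOP1 cells, 11.98 and 11.86 in CKS2 cells, and 12.22 and 11.98 in NFIL3 cells. Both control arrays were above all 6 others. The differences were -0.427 (SE 0.117, adjusted p = 0.0248), -0.568 (SE 0.117, adjusted p = 0.00533) and -0.386 (SE 0.117, adjusted p = 0.0376). MRPL32, whose bacterial-type protein must be cut by the m-AAA protease before it joins the large subunit, measured 12.98 on both control arrays, 12.45 and 12.62 in the BOP1 line, and 12.58 and 12.61 in the CKS2 line. Both lines showed a fall, of -0.446 (SE 0.111, adjusted p = 0.0157) in BOP1 cells and -0.386 (SE 0.111, adjusted p = 0.0292) in CKS2 cells. In NFIL3 cells its arrays read 12.70 and 12.68, also below both control arrays.

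MRPL44, which carries an RNase III-like fold, read 11.33 and 11.44 in the control line, 11.17 and 11.06 in the BOP1 line and 11.08 and 11.01 in the NFIL3 line. It fell in both, by 0.265 (SE 0.078, adjusted p = 0.0339) and by 0.338 (SE 0.078, adjusted p = 0.00939) on the log2 scale. MRPL23, one of the proteins at the exit of the peptide tunnel, read 12.89 and 12.85 in the control line, 12.61 and 12.53 in the BOP1 line and 12.55 and 12.40 in the NFIL3 line. Neither line's arrays overlapped the control arrays, and it fell in both (-0.301, SE 0.097, adjusted p = 0.0493, and -0.393, SE 0.097, adjusted p = 0.0133).

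Among members that fell in 1 of the lines, MRPL47 fell in the BOP1 line by 0.357 (SE 0.087, adjusted p = 0.0139) and MRPL40 by 0.375 (SE 0.121, adjusted p = 0.05, under the threshold before rounding). In the CKS2 line MRPS12, a protein of the decoding centre, fell by 0.339 (SE 0.086, adjusted p = 0.0164) and MRPL19 by 0.316 (SE 0.099, adjusted p = 0.0442). In the NFIL3 line MRPL4 (-0.419, SE 0.104, adjusted p = 0.0143), MRPS17 (-0.302, SE 0.082, adjusted p = 0.022), MRPL2 (-0.367, SE 0.102, adjusted p = 0.0244) and MRPS2 (-0.396, SE 0.116, adjusted p = 0.0322) fell. That a member fell in 1 line only is no sign that the lines differ. Set against each other, the lines gave 0 member calls by limma in each of the 3 pairs, with 0 members at an unadjusted p under 0.05 for BOP1 against CKS2, 3 for BOP1 against NFIL3 and 3 for CKS2 against NFIL3. Of all genes, 0.00824%, 0.00824% and 0% were called in those 3 pairs, and 435, 933 and 793 of 12141 had an unadjusted p under 0.05. The members with the smallest p were MRPL47 (-0.166, adjusted p = 1) and MRPS18A (0.259, adjusted p = 1) between BOP1 and CKS2, MRPS17 (0.258, adjusted p = 0.52) and MRPL2 (0.274, adjusted p = 0.577) between BOP1 and NFIL3, and MRPL23 (0.223, adjusted p = 0.734) and MRPL4 (0.235, adjusted p = 0.74) between CKS2 and NFIL3.

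No single member call in a line was kept when each of its 4 arrays was left out in turn: 0 of 6, 0 of 4 and 0 of 8. The counts then ranged over 0 to 2, 1 to 2 and 0 to 3, while the share of all genes that fell was 1.56% to 2.11%, 1.65% to 2.36% and 1.65% to 2.92%. For MRPL41 in the CKS2 line, the call was lost only without the CKS2 line's DMSO replicate 2, at an adjusted p of 0.0558. The median over the members kept its sign without any 1 array, at -0.148 to -0.111 in the BOP1 line, -0.166 to -0.149 in the CKS2 line and -0.178 to -0.15 in the NFIL3 line.

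The second comparison, LY294002 against DMSO, was made in 3 lines. On the mean of the lines 38 of 76 members fell (50%), where 26.4% of all genes fell, and 6 rose (7.89%), where 22.8% of all genes rose. The median member difference was -0.16 and the median of all genes -0.018. Within lines, 16 members fell and 1 rose in the BOP1 line (11.2% and 10.4% of all genes). In the CKS2 line 11 fell and 2 rose (13.9% and 11.7% of all genes), and in the NFIL3 line 24 fell and 0 rose (13.8% and 12.1% of all genes). Of the members, 21.1%, 14.5% and 31.6% fell in the BOP1, CKS2 and NFIL3 lines, so the share in the CKS2 line was near its background. In the NFIL3 line 36 members had an unadjusted p under 0.05, 2 of them higher, beside 4618 of all 12141 genes. On the mean of 3 lines CD68 rose (0.593, adjusted p = 0.000216), neither fibroblast marker was called, and 2 of 9 epithelial markers rose and 1 fell, with no test of their part. The members' medians within lines were -0.137, -0.091 and -0.183, beside -0.016, -0.017 and -0.03 for all genes. The CKS2 line's median was -0.057 without LY294002 replicate 1 and -0.062 without DMSO replicate 1, still below 0.

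**Figure D2:**
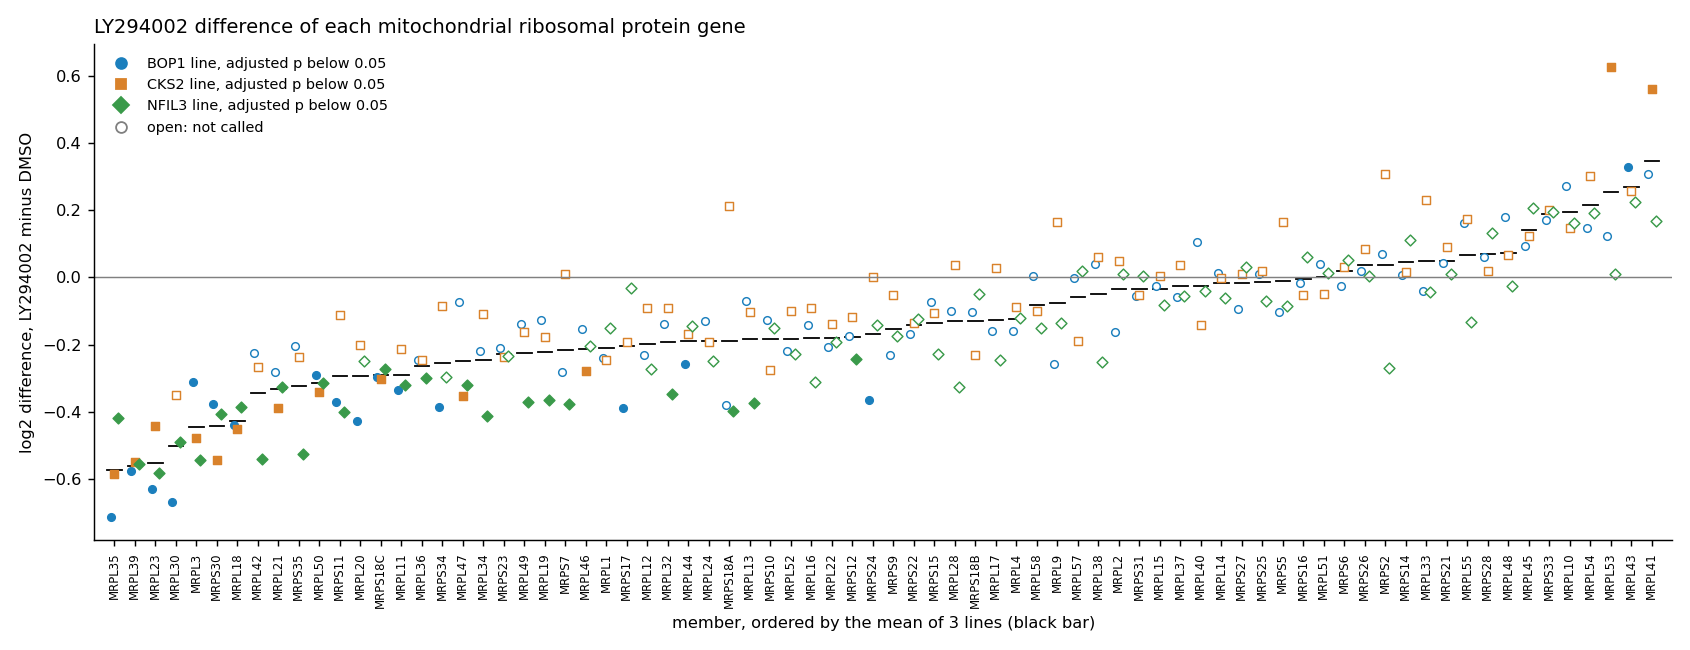
Difference in log2 signal between LY294002 and DMSO (y axis) for each of the 76 members (x axis), ordered by the mean of 3 lines (black bars); filled symbols passed the adjusted threshold within a line and open symbols did not. At the left MRPL35, MRPL39 and MRPL23 lie below 0 in every line, and at the right MRPL41 and MRPL43 lie above 0 in every line.

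The arrays of the 3 lines share no sample, so a member's sign can be set between them. Below 0 in all 3 lines were 40 of 76 members (52.6%), as were 34.5% of all genes, and above 0 in all 3 were 11 members (14.5%) beside 29.7% of all genes. Called as falling in each of the 3 lines were 8 members (10.5%), beside 5.88% of all genes: MRPL18, MRPL23, MRPL3, MRPL35, MRPL39, MRPL50, MRPS18C and MRPS30. Of these, only MRPL23 and MRPL39 kept the call in each line without each of its 4 arrays, while MRPL3 and MRPS18C in the BOP1 line and MRPL18 in the NFIL3 line lost it without any 1 of them. Across the 76 members the differences of 2 lines correlated at 0.723 for BOP1 and CKS2, 0.754 for BOP1 and NFIL3 and 0.655 for CKS2 and NFIL3. Over all genes those values were 0.752, 0.668 and 0.681, so the members were no exception; the points share their arrays and genes are not independent replicates.

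MRPL39, a large-subunit protein without a bacterial counterpart and related in sequence to threonyl-tRNA synthetase, had the smallest adjusted p. With DMSO it read 12.44 and 12.35 in BOP1 cells, 12.48 and 12.41 in CKS2 cells, and 12.51 and 12.39 in NFIL3 cells. Its LY294002 arrays read 11.80 and 11.83, 11.97 and 11.82, and 11.96 and 11.83 in the same order. Every LY294002 array lay below every DMSO array, and the change was alike in the 3 lines at -0.576, -0.548 and -0.554 (SE 0.094 each). The mean was -0.559 (SE 0.054, adjusted p = 6.63e-07), a signal lower by 1.47-fold.

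MRPL23 read 12.61 and 12.53, 12.65 and 12.75, and 12.55 and 12.40 with DMSO. With LY294002 it read 11.88 and 12.00, 12.18 and 12.34, and 11.99 and 11.80. The groups did not overlap in any line, and the mean fell by 0.55 (SE 0.056, adjusted p = 1.1e-06). MRPL35, which sits in the large subunit and has a bacterial homologue, read 12.51 to 12.74 with DMSO and 11.79 to 12.31 with LY294002 over the 3 lines. Its fall of 0.572 (SE 0.075, adjusted p = 1.26e-05) was the lowest value among the members, and in the NFIL3 line, where it was -0.417, the call was lost without DMSO replicate 1, DMSO replicate 2 or LY294002 replicate 2, with adjusted p up to 0.235.

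MRPL3, a protein of the large subunit's core close to the peptidyl transferase centre, read 13.69 and 13.75, 13.68 and 13.84, and 13.73 and 13.75 with DMSO. With LY294002 it read 13.41 and 13.40, 13.34 and 13.22, and 13.15 and 13.25. All 6 were below all 6 DMSO arrays, and the mean fell by 0.443 (SE 0.057, adjusted p = 1.09e-05). MRPS30 is named for the small subunit but was placed in the large one by structures of the human particle. It read 12.95 to 13.18 with DMSO and 12.36 to 12.74 with LY294002, with no overlap, and fell by 0.441 (SE 0.05, adjusted p = 3.24e-06).

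MRPL30, a large-subunit protein of bacterial descent, fell by 0.501 on the mean (SE 0.075, adjusted p = 4.66e-05). Within lines it fell in the BOP1 and NFIL3 lines, by 0.667 and 0.488. In the CKS2 line its DMSO arrays read 10.77 and 10.38, far apart, its LY294002 arrays 10.14 and 10.32, and it was not called. MRPL18, which binds the large subunit's RNA, read 13.38 to 13.44 on the 6 DMSO arrays and 12.92 to 13.03 on the 6 LY294002 arrays, without overlap, and fell by 0.425 (SE 0.066, adjusted p = 6.23e-05). MRPS18C, a small-subunit protein with a bacterial homologue, fell by 0.29 (SE 0.054, adjusted p = 0.000329) and MRPL50 by 0.314 (SE 0.057, adjusted p = 0.000267). Within the NFIL3 line, MRPS35 (-0.524, SE 0.09, adjusted p = 0.000665) and MRPL42 (-0.538, SE 0.098, adjusted p = 0.00101) were among the 6 members with the smallest adjusted p. In the BOP1 line MRPS17 was (-0.388, SE 0.082, adjusted p = 0.00361).

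**Figure D3:**
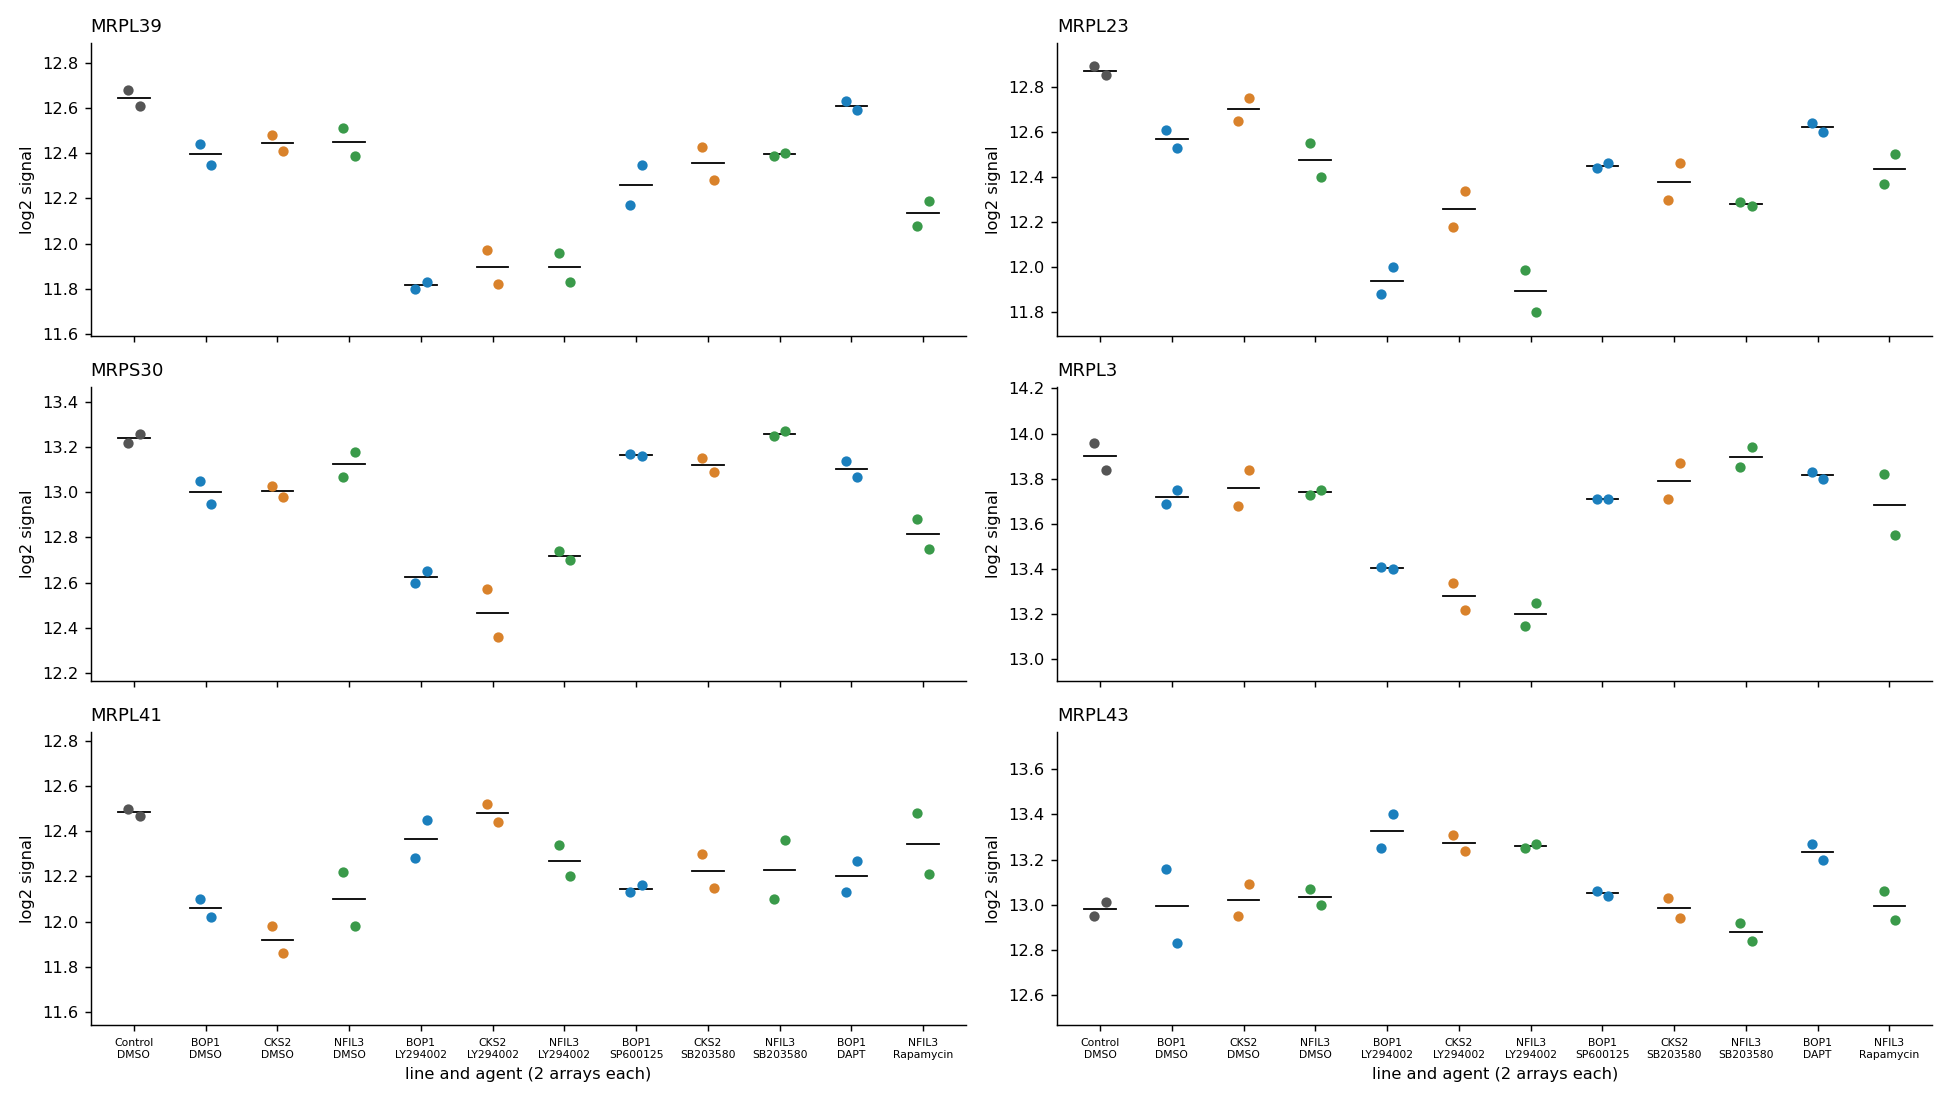
Log2 signal (y axis) of 6 members on each of the 24 arrays, by line and agent (x axis); points are arrays, bars the mean of 2 arrays, and colours the lines. MRPL39, MRPS30 and MRPL3 have their lowest values with LY294002 in each line, as does MRPL23. For MRPL41 and MRPL43 the mean with LY294002 is above the mean with DMSO in each of the 3 lines.

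The 6 members that rose on the mean of 3 lines were all mitochondria-specific, and all but MRPS33 belong to the large subunit. MRPL41 read 12.10 and 12.02, 11.98 and 11.86, and 12.22 and 11.98 with DMSO in the BOP1, CKS2 and NFIL3 lines. With LY294002 it read 12.28 and 12.45, 12.52 and 12.44, and 12.34 and 12.20. Its groups did not overlap in the BOP1 and CKS2 lines and overlapped in the NFIL3 line. It rose by 0.345 on the mean (SE 0.068, adjusted p = 0.00054), and within lines only in the CKS2 line, by 0.561 (SE 0.117, adjusted p = 0.00276). The same DMSO arrays that were low against the control line enter here, so these 2 results for MRPL41 are not independent. MRPL43 read 12.83 to 13.16 with DMSO and 13.24 to 13.40 with LY294002, without overlap, and rose by 0.27 (SE 0.059, adjusted p = 0.00131). Within lines it rose in the BOP1 line (0.329, SE 0.103, adjusted p = 0.0316), a call lost without replicate 2 of either group, at adjusted p up to 0.344.

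MRPS33 (0.19, SE 0.057, adjusted p = 0.011), MRPL54 (0.214, SE 0.073, adjusted p = 0.023), MRPL53 (0.253, SE 0.087, adjusted p = 0.0236) and MRPL45 (0.142, SE 0.05, adjusted p = 0.0267) also rose. MRPL45 is the protein that tethers the particle to the inner membrane. The value of MRPL53 came mostly from the CKS2 line, where it read 10.75 and 10.52 with DMSO and 11.01 and 11.52 with LY294002 (0.627, SE 0.15, adjusted p = 0.00654). Leaving out replicate 2 of either CKS2 group ended that call, at adjusted p up to 0.105.

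By descent, 28 of the 45 members with a bacterial homologue fell (62.2%) and 0 rose, with a median of -0.181, while 10 of the 31 mitochondria-specific members fell (32.3%) and 6 rose, with a median of -0.058. By subunit, 26 of 50 large-subunit members fell and 5 rose (median -0.182), and 12 of 26 small-subunit members fell and 1 rose (median -0.132). Of all genes 26.4% fell and 22.8% rose, so the share of mitochondria-specific members that fell was near the background. The differences between these classes were not tested. When each of the 12 arrays was left out in turn, 29 of the 38 falls and 3 of the 6 rises were kept every time. Of the falls kept, 19 were members with a bacterial homologue and 10 were mitochondria-specific. The calls lost without some array were the falls of MRPL12, MRPL13, MRPL16, MRPL22, MRPL32, MRPS10, MRPS15, MRPS24 and MRPS9 and the rises of MRPL45, MRPL53 and MRPL54, with adjusted p up to 0.178 for MRPL16. Calls within a single line held less well: 5 of 16 falls in the BOP1 line, 6 of 11 in the CKS2 line and 6 of 24 in the NFIL3 line were kept without each of the 4 arrays. Counting rises and falls together, no line had more members called without 1 array than with all of them. The share of all genes that fell was lower without 1 array in each line as well.

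Whether LY294002 acted on a member differently between lines was tested as a difference of differences. No member was called by limma in any of the 3 pairs of lines: 0 for BOP1 minus CKS2, where 0% of all genes were called, 0 for BOP1 minus NFIL3, where 0.14% were, and 0 for CKS2 minus NFIL3, where 0.297% were. At an unadjusted p under 0.05 there were 5, 3 and 7 members, beside 779, 1227 and 1315 of all 12141 genes. MRPS18A and MRPL9 had the smallest p in the first pair (-0.591, SE 0.192, and -0.421, SE 0.151, adjusted p = 0.764 each), MRPS17 (-0.358, SE 0.116, adjusted p = 0.225) and MRPS35 (0.32, SE 0.127, adjusted p = 0.358) in the second. In the third pair they were MRPS2 (0.578, SE 0.164, adjusted p = 0.154) and MRPS18A (0.61, SE 0.192, adjusted p = 0.211). In the CKS2 line MRPS2 read 11.11 and 11.22 with DMSO and 11.33 and 11.61 with LY294002. In the NFIL3 line it read 10.97 and 11.00 with DMSO and 10.72 and 10.71 with LY294002. The median standard error of such differences was 0.183, against 0.129 for a difference between 2 groups.

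In the NFIL3 line LY294002 could also be compared with Rapamycin. Against DMSO, Rapamycin lowered 2 members (2.63%) and raised 0, where 4.09% of all genes fell and 3.53% rose. At an unadjusted p under 0.05, 13 members were lower and 3 higher, beside 2969 of all 12141 genes in either direction. No member rose under any of the 8 alternatives. The median was -0.053 (all genes -0.021), and -0.034 without Rapamycin replicate 1. The members that fell were MRPL1, which lies on the large subunit's mobile L1 stalk, and MRPS30. MRPL1 read 12.04 and 11.95 with DMSO and 11.62 and 11.65 with Rapamycin (-0.361, SE 0.094, adjusted p = 0.0291), and with LY294002 in the same line it read 11.83 and 11.87. MRPS30 read 13.07 and 13.18 with DMSO, 12.88 and 12.75 with Rapamycin (-0.314, SE 0.086, adjusted p = 0.0356) and 12.74 and 12.70 with LY294002. Both calls were lost without any 1 of the 4 arrays, at adjusted p up to 0.165 and 0.228.

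Set directly against Rapamycin, LY294002 gave lower values for 13 members (17.1%) and a higher one for 1, where 8.09% of all genes fell and 8.38% rose. The doses differ between the agents, 3.3 µM and 33.3 nM. MRPL23 read 11.99 and 11.80 with LY294002 and 12.37 and 12.50 with Rapamycin (-0.538, SE 0.097, adjusted p = 0.00168), and it was the 1 call kept without each array. MRPL3 (-0.484, SE 0.099, adjusted p = 0.00412), MRPS11 (-0.549, SE 0.119, adjusted p = 0.00582), MRPS2 (-0.534, SE 0.116, adjusted p = 0.00605), MRPL36 (-0.351, SE 0.091, adjusted p = 0.0154) and MRPL4 (-0.39, SE 0.104, adjusted p = 0.0184) were the next. MRPS14 was higher (0.376, SE 0.11, adjusted p = 0.0287): it read 8.60 and 8.38 with LY294002, 8.23 and 7.99 with Rapamycin, and 8.28 and 8.47 with DMSO. Its call was lost without LY294002 replicate 1 or Rapamycin replicate 2, at adjusted p up to 0.251. Leaving out 1 array at a time, fewer members were called in this comparison, rises and falls together. A smaller share of all genes fell then as well.

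SB203580 was compared with DMSO in the CKS2 and NFIL3 lines. The median member difference was 0.062 and 0.033 (all genes -0.028 and -0.033). Without DMSO replicate 2 it was 0.035 in the CKS2 line. In the CKS2 line 2 members rose and 1 fell, where 5.08% of all genes rose and 7.4% fell, and in the NFIL3 line 3 rose and 0 fell, where 4.56% rose and 7.85% fell. On the mean of both lines 6 rose (7.89%) and 1 fell (1.32%), where 11% and 16.5% of all genes did. In the NFIL3 line 6 members had an unadjusted p under 0.05, 0 of them lower, beside 3368 of all 12141 genes. In that line 0 members fell under any of the 8 alternatives. On the mean of both lines CD68 rose (0.911, adjusted p = 8.62e-05), and LYZ (-0.838, adjusted p = 0.000214), COL1A1 (-0.63, adjusted p = 0.000298) and 1 of 9 epithelial markers fell. Their part in the members' values was not tested.

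MRPL15, a large-subunit protein with a bacterial homologue, rose in both lines. It read 11.13 and 11.38 with DMSO and 11.58 and 11.70 with SB203580 in the CKS2 line, and 11.35 and 11.37 with DMSO and 11.77 and 11.74 with SB203580 in the NFIL3 line. No arrays overlapped, and the mean rise was 0.387 (SE 0.077, adjusted p = 0.0015). MRPS10 rose by 0.316 (SE 0.072, adjusted p = 0.00378), MRPL1 by 0.247 (SE 0.066, adjusted p = 0.0112), MRPL38 by 0.237 (SE 0.072, adjusted p = 0.0218), MRPL30 by 0.268 (SE 0.092, adjusted p = 0.0387) and MRPS17 by 0.161 (SE 0.058, adjusted p = 0.0494). MRPL23 fell by 0.26 (SE 0.068, adjusted p = 0.00958), with SB203580 readings of 12.30 and 12.46 in CKS2 cells and 12.29 and 12.27 in NFIL3 cells. The calls of MRPL15, MRPS10 and MRPL23 were kept without each of the 8 arrays, and those of the other 4 were not, with adjusted p up to 0.195 for MRPL30. Within single lines no call was kept, and the number called fell to 0 without some array in each line. No member's change differed between the 2 lines by limma (0% of all genes did). At an unadjusted p under 0.05 there was 1 member, beside 470 of all 12141 genes. The smallest p were those of MRPS23 (-0.329, SE 0.144, adjusted p = 1) and MRPL47 (-0.257, SE 0.123, adjusted p = 1).

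In the BOP1 line SP600125 and DAPT gave no member call by limma and none under any of the 8 alternatives. Of all genes, 0% were called with SP600125 and 0.00824% with DAPT. At an unadjusted p under 0.05, 6 members differed with SP600125, 5 of them lower, and 9 with DAPT, 6 of them higher. Of all 12141 genes, 1424 did with SP600125 and 1525 with DAPT. MRPL2 (-0.377, SE 0.102, adjusted p = 0.223) and MRPS2 (-0.327, SE 0.116, adjusted p = 0.282) had the smallest p with SP600125. MRPL13 (0.307, SE 0.106, adjusted p = 0.251) and MRPS18A (-0.38, SE 0.136, adjusted p = 0.266) had them with DAPT.

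**Figure D4:**
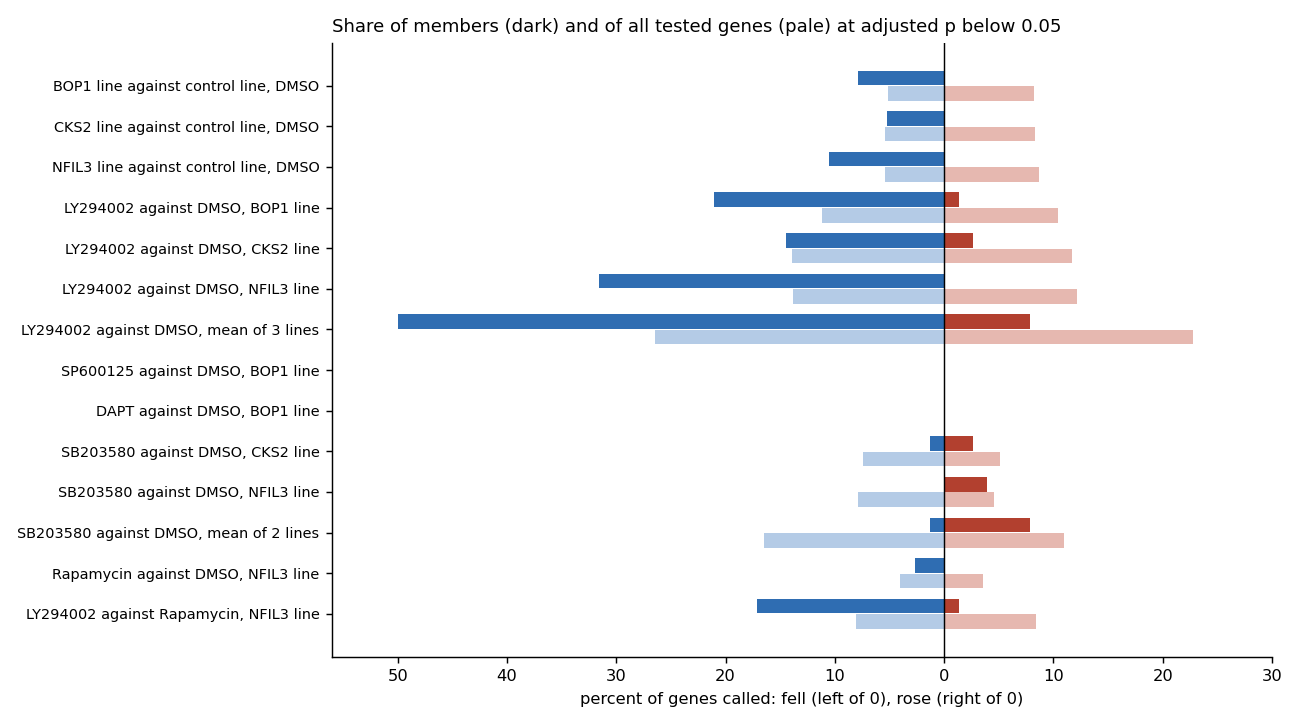
Percent of genes called at an adjusted p under 0.05 (x axis, falls to the left and rises to the right of 0) among the 76 members (dark bars) and among all 12141 genes tested (pale bars), for 14 comparisons (y axis). The longest dark bar is the 50% of members that fell with LY294002 on the mean of 3 lines, beside 26.4% of all genes.

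Other genes of mitochondrial translation were followed as lists. Of 4 mitoribosomal proteins with other names, CHCHD1 (-0.229, adjusted p = 0.00346) and DAP3 (-0.131, adjusted p = 0.0335) fell with LY294002 on the mean of 3 lines. PTCD3, a small-subunit protein of the pentatricopeptide family, rose by 0.631 (SE 0.122, adjusted p = 0.000475), and GADD45GIP1 read -0.206 (adjusted p = 0.0745). Of 18 translation factors 6 fell (33.3%, beside 26.4% of all genes) and 3 rose, near the background, among them falls of GUF1, a ribosome-bound GTPase (-0.361, adjusted p = 0.000128), TACO1, a translational activator for cytochrome oxidase (-0.275, adjusted p = 0.000515), and MTRF1L, a release factor (-0.287, adjusted p = 0.000697). Of 26 assembly and rRNA-modifying factors 8 fell (30.8%) and 5 rose, also near the background: FASTKD2, an RNA-binding protein of the large subunit's assembly, fell by 0.697 (SE 0.082, adjusted p = 4.61e-06), whereas NOA1, a GTPase, rose by 0.433 (SE 0.058, adjusted p = 1.47e-05).

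Of 19 mitochondrial aminoacyl-tRNA synthetases and related enzymes, 10 fell (52.6%, beside 26.4% of all genes) and 3 rose (median -0.173). MARS2 fell by 0.556 (SE 0.055, adjusted p = 8.33e-07), YARS2 by 0.402 (SE 0.056, adjusted p = 2.17e-05) and QRSL1 by 0.433 (SE 0.076, adjusted p = 0.00021). Of 11 genes for transcription and upkeep of mitochondrial DNA 6 fell (54.5%) and 1 rose. POLG2, the accessory subunit of its polymerase, fell by 0.551 (SE 0.075, adjusted p = 1.91e-05), TFAM by 0.249 (adjusted p = 0.00276), and TOP1MT rose by 0.342 (adjusted p = 0.00131). Of 9 regulators of mitochondrial gene expression 3 fell (33.3%, beside 26.4% of all genes) and 2 rose, near the background. The falls were GABPB1, a subunit of the ETS factor GABP (-0.52, SE 0.052, adjusted p = 8.68e-07), ESRRA (-0.332, adjusted p = 0.000141) and PPRC1 (-0.335, adjusted p = 0.000175). NRF1 was not among the falls, and the 2 regulators that rose are not named here.

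Of 69 nuclear genes for the respiratory chain and ATP synthase 22 fell (31.9%, beside 26.4% of all genes) and 3 rose with LY294002, with a median of -0.1, led by NDUFA9 (-0.506, SE 0.057, adjusted p = 3.42e-06). Of 74 cytosolic ribosomal protein genes 6 fell (8.11%) and 17 rose, where 26.4% of all genes fell and 22.8% rose. The share that rose was thus near the background. The median of this list was 0.051, and the largest changes went both ways (RPL36A -1.001, RPL14 0.876). Cytosolic ribosomal protein genes have many near-identical copies, so the source of their signals is uncertain. In the BOP1, CKS2 and NFIL3 lines against the control line, 2, 2 and 1 respiratory chain genes fell with medians of -0.013, -0.026 and -0.031, and the cytosolic list had medians of -0.02, 0.02 and 0.016. Of all genes in these comparisons, 5.11%, 5.41% and 5.41% fell and 8.26%, 8.27% and 8.72% rose. In the same comparisons 4, 3 and 3 of the 9 regulators fell and 0 rose. ESRRA was at -0.463 (adjusted p = 0.00593) and -0.44 (adjusted p = 0.00737) in the BOP1 and CKS2 lines. GABPB1 was at -0.342 (adjusted p = 0.0198), -0.297 (adjusted p = 0.0367) and -0.416 (adjusted p = 0.00637) in the 3 lines, PPRC1 at -0.356 (adjusted p = 0.0272), -0.311 (adjusted p = 0.0491) and -0.338 (adjusted p = 0.0331). NRF1 fell in the BOP1 and NFIL3 lines, at -0.635 (adjusted p = 0.0379) and -0.737 (adjusted p = 0.0181), and in the CKS2 line it read -0.353 (adjusted p = 0.232). POLG2 fell in each of the 3 as well, by 0.592, 0.559 and 0.442. Lists were compared by their counts and medians alone.

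For 24 members several probes were kept, and probes of a gene often disagreed in sign. All kept probes of a gene had the same sign for 19 of the 24 genes with LY294002 on the mean of 3 lines, 17, 19 and 18 in the BOP1, CKS2 and NFIL3 lines against control, 11 with SB203580 on the mean of both lines and 10 with Rapamycin. Probes called in opposite directions were found for 0 of the 24 in the 11 comparisons in which this was counted. Differences in size were also seen. For MRPL11, a stalk-base protein of the large subunit, 2 bright probes gave -0.289 and -0.282 with LY294002 on the mean of 3 lines, and a dim one gave -0.804 (SE 0.118). For MRPS12 the probes gave -0.178, -0.237, -0.797 and -0.175, the third being the -0.797 of a probe with a mean log2 level of 8.54 against 13.47 for the brightest. MRPL55 went the other way: its bright probes gave 0.068 and -0.056, and a dim one, detected on only 5 arrays, gave 0.766 (SE 0.129). These genes were named after their values had been seen. What each probe's transcripts are, and whether processed copies of these genes add to its signal, was not examined.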

How the data were processed

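RNA of SW480 lines was measured on Illumina HumanHT-12 v4 arrays, 24 in all, after biotin labelling. Per the file headers, the deposited table gives for each probe a raw signal intensity that is not normalized and a detection p-value. GenomeStudio 2010.1 and Partek appear in the submitters' processing notes with no role stated. The authors' processed table, whose values read as linear intensity quantile-normalized between arrays, served as an alternative after log2. Probe genes come from the platform annotation: of 47323 probes 30113 had 1 symbol, 8 several and 17202 none.

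Intensities were background-corrected from the detection p-values, quantile-normalized (neqc, offset 16) and put on the log2 scale. Probes with a detection p under 0.01 on at least 2 arrays were kept (21608), and the brightest kept probe stood for each of 12141 genes. One limma 3.58.1 model (R 4.3.3) with a mean for each of 12 groups was fitted to 24 arrays (12 residual degrees of freedom), giving 21 comparisons. P-values were adjusted by Benjamini-Hochberg over all genes within each comparison. The scripts were tested on simulated data. Figures were drawn with matplotlib 3.10.9 in Python 3.11.15.

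The members and the other gene lists were chosen with earlier results of these data known. The members named are, for each comparison, up to 6 called in each direction with the smallest adjusted p, or the 2 with the smallest p where none was called, and those called in most lines. From each other list, up to 3 called genes were eligible, and GADD45GIP1, TFAM and values of regulators that were not called were added once results were known. Each group's 2 arrays are labelled as biological replicates, with nothing on separate cultures, so p-values measure the spread between arrays, which may be technical. Same-numbered arrays showed little pairing: over 66 pairs of groups, deviations correlated at -0.103 to 0.291, over 0.1 in 3. The labels do not say whether same numbers share a batch, so pairing in some groups remains unknown. Alternatives were other background correction, normalization, probe filters and probe summaries, fits on the arrays compared only, a replicate block, and each array left out in turn. The number of arrays limits the precision.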

Additional observations from a re-analysis of the deposited data

How the results depend on the processing

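The number of members called changed by over 1.5 times in these cases. With only the compared arrays in the fit it was 1, 2 and 0 for the BOP1, CKS2 and NFIL3 lines against control, 4, 4 and 6 for LY294002 in those lines, and 0 for SB203580 in either line, for Rapamycin and for LY294002 against Rapamycin. With no filter on dim probes it was 3, 2 and 5 for the lines, 7 for LY294002 in the BOP1 line, 0 and 1 for SB203580 in the CKS2 and NFIL3 lines, 0 for Rapamycin and 8 for LY294002 against Rapamycin. Without background correction it was 8 for the CKS2 line, 5 for SB203580 in that line and 5 for Rapamycin, and the authors' processed table gave 8, 5 and 5 as well. Cyclic loess gave 12 for the BOP1 and 7 for the CKS2 line. Probes detected on all 24 arrays gave 7 for the CKS2 line, 5 for SB203580 in that line and 4 for Rapamycin. The mean of kept probes gave 11 and 7 for the BOP1 and CKS2 lines and 5 for SB203580 in the CKS2 line. Fitting only the compared arrays leaves fewer arrays in the fit, and dropping the filter adds genes to it. The cause was not tested for any of these changes. With 1 array left out, counts were 0 to 2, 1 to 2 and 0 to 3 for the lines, 7 to 10, 8 to 13 and 6 to 14 for LY294002, 0 to 2 and 0 to 0 for SB203580, 0 to 0 for Rapamycin and 3 to 7 for LY294002 against Rapamycin. Over the other alternatives 33 to 41 members fell and 4 to 7 rose with LY294002 on the mean of 3 lines, with medians of -0.168 to -0.157.

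With the replicate number as a block, 6, 4 and 8 members were called in the lines, 15, 13 and 23 with LY294002 and 43 on its mean, 2, 2 and 7 with SB203580, 2 with Rapamycin and 15 for LY294002 against Rapamycin. Among the calls followed by name, the block ended those of MRPL23 in the BOP1 line (adjusted p = 0.058), MRPL38 with SB203580 in the CKS2 line (0.0507), MRPS10 in the NFIL3 line (0.0539) and MRPS17 on the mean (0.0515). With LY294002 the falls went from 16 to 14 in the BOP1 line and from 24 to 23 in the NFIL3 line. On the mean of 3 lines they went from 38 to 37. The members behind these changes were not followed by name. No slide or scan is given for the arrays in the sources used here, so a slide block was not run.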
